A study of Drosophila melanogaster with 6 samples.

Results

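DNA repair genes encode the enzymes that find damaged DNA, cut or reverse the lesion, and refill or rejoin the strand. The set described here holds genes of photoreversal, nucleotide and base excision repair, mismatch repair, double-strand break repair, crosslink repair and translesion synthesis. It was listed by name, with no filter on values, but with earlier results of these data known. The list had 35 symbols, and 32 of the 14233 genes of the deposited table carry one of them in its symbol column. Fancm, mus312 and hay were not matched by symbol and are not members here. The reference symbol table gives the name Fancm to the gene listed as CG7922, which is not counted below and had a log2 fold change of -0.0087 between the genotypes.

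The genes were measured in dorsal cells of the wing imaginal disc, the larval epithelium that makes the adult wing and part of the thorax, taken from wandering third-instar larvae of Drosophila melanogaster. Both genotypes carried the Ap>Gal4 driver, the membrane Tomato label myrT and TubGal80ts, a temperature-sensitive repressor of Gal4. One of them also carried RasV12, a constitutively active Ras, and the control carried the construct that the labels name GFP-i. Larvae were kept at 18 °C for 6 days and at 29 °C for 3 days, so the transgenes were on in Gal4-positive cells for the last 3 days only, and about 150000 sorted cells went into each library. There were 3 libraries per genotype. Since the labels leave unsaid whether each had its own larvae, the p-values cover no more than the spread among these 6 libraries. The series title names the DNA damage response, and the question asked of these genes is which of them differ in level between the genotypes.

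Repair of a lesion starts with recognition. Photolyases reverse ultraviolet lesions directly with the energy of light, excision pathways cut out a damaged base or a short stretch and copy the intact strand, and mismatch repair corrects copying errors. Broken ends are either processed and copied from a sister chromatid by homologous recombination or joined by the Ku proteins or by DNA polymerase theta. Dividing tissues such as the disc use many of these enzymes in S phase, when replication meets lesions.

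The libraries held 11070295 to 15581752 counts of 3' mRNA tags. Levels are CPM, counts scaled to library size with TMM factors, so 3 counts stood for 0.177 to 0.281 CPM, counting error only. CPM of 3' tags is not divided by gene length. Ribosomal RNA rows took 11.7 to 18.6% of all counts, and mitochondrial genes took 2.16 to 5.31%, with overlapping ranges in the genotypes. The wing disc genes ap (207 to 308 CPM) and sd (505 to 549 CPM) were present in every library, and vg stood at 30.0 to 48.7 CPM in RasV12 cells but at 93.7 to 128 CPM in the control. Of 8 wing disc epithelium markers 1 fell (vg) and 2 rose, shg with a log2 fold change of 0.66 and Egfr with 0.50 (edgeR adjusted p = 0.0309 and 0.0354). Of 6 haemocyte markers in the table, 3 could be tested and 1 fell, vkg, with a log2 fold change of -2.18 (edgeR adjusted p = 0.00249). Its level was 0.562 to 1.23 CPM in RasV12 and 4.21 to 4.38 CPM in GFP-i. Values of srp and Pxn were -0.49 and -0.75 and did not pass. The summed level of the 6 was 8.15 to 10.7 CPM in RasV12 and 10.98 to 20.1 CPM in GFP-i. He was at 0 in each RasV12 library, but had only 1, 3 and 1 counts in GFP-i and was too low to test. Hml, also untested, had 2, 5 and 14 counts in RasV12 and 3, 8 and 12 in GFP-i. The only count of eater was 1 in RasV12 replicate 2. Of 7 muscle precursor markers 3 fell, Him, zfh1 and htl, with log2 fold changes of -3.44, -2.18 and -2.04 (edgeR adjusted p = 0.000387, 0.0288 and 0.00932). The other 4 did not pass, and 1 of the 7, Mef2, had a value above 0 (0.33). The summed level was 226 to 304 CPM against 327 to 423 CPM, most of it from vvl, which disc epithelium also expresses. The summed tracheal (1051 to 1268 against 1031 to 1297 CPM) and neuron and glia markers (108 to 124 against 85.2 to 114 CPM) overlapped between genotypes, although 3 of 5 and 1 of 6 of them rose. Most of the tracheal sum came from dp, at 560 to 818 CPM in RasV12 and 756 to 999 CPM in GFP-i. The tracheal genes that rose were btl, serp and verm, with log2 fold changes of 1.19, 0.95 and 0.72. Values of trh and dp were below 0 (-0.58 and -0.35) and did not pass. Fat body markers summed to 10.1 to 15.9 against 5.94 to 10.8 CPM, nearly all Lsp1beta. The part of these cells in the results was not tested.

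In RasV12 cells 2 repair genes rose, the photolyase gene phr and the damage-recognition gene mus210, and 1 fell, the AP endonuclease gene Rrp1. The other 27 tested genes did not pass (edgeR quasi-likelihood test, adjusted p under 0.05). Among all tested genes 14.8% passed, 9.15% higher and 5.68% lower, so 3 of 30 repair genes is not above that background. At an unadjusted p under 0.05 there were 6 repair genes, 3 higher and 3 lower, where 28.3% of all genes stood. The median log2 fold change (RasV12 over GFP-i) of the 30 was 0.03, beside 0.02 over all 9134 tested genes, with 16 values above 0 and 14 below. In bulk RNA a change in the share of cells that express a gene and a change in RNA per cell cannot be told apart.

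**Figure D1:**
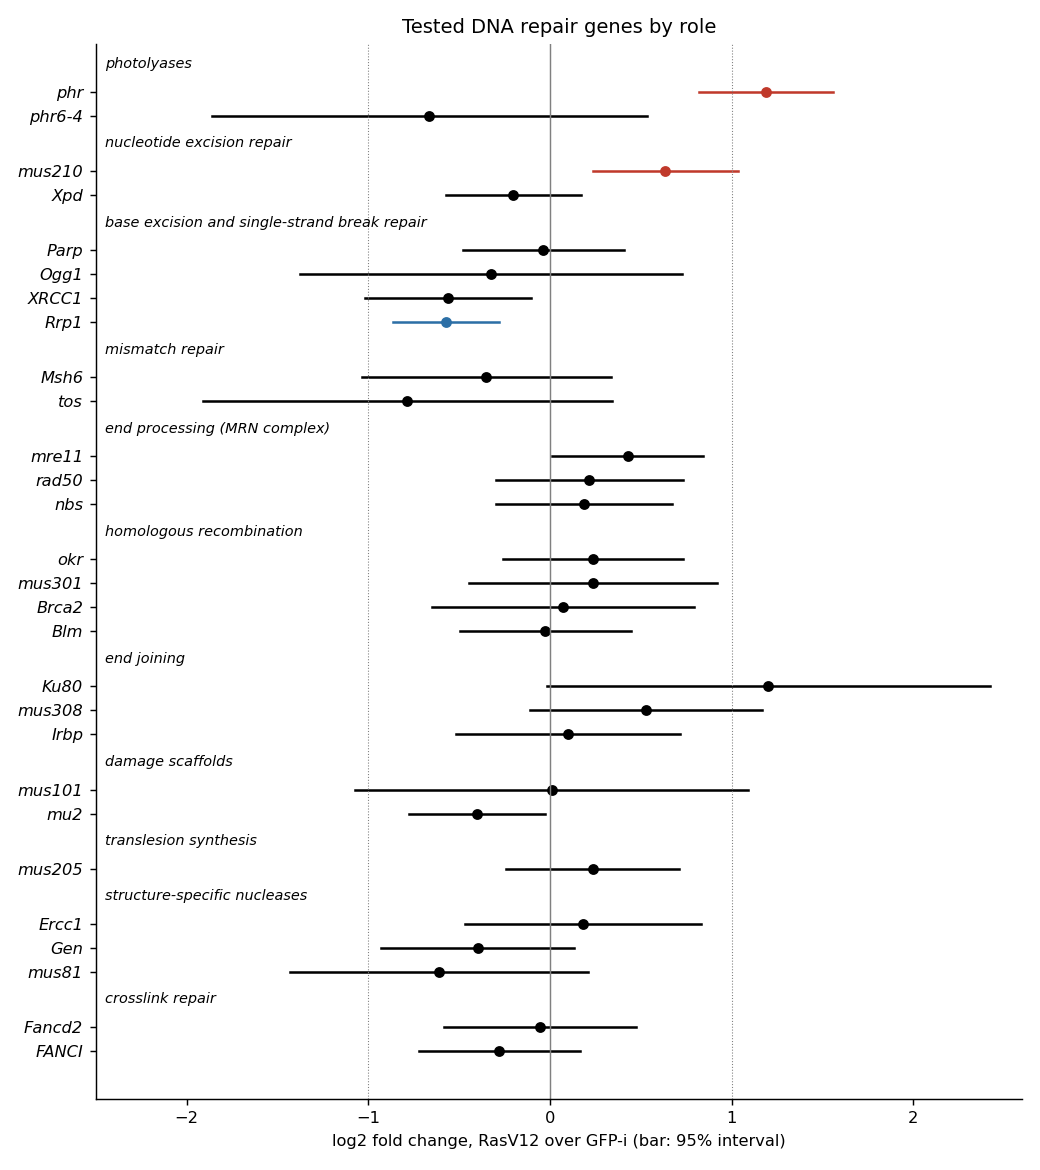
Log2 fold change (horizontal axis, RasV12 over GFP-i) of 28 of the tested repair genes, ordered by role. Points are fitted values, bars are 95% intervals, and dotted lines mark 1 log2 unit; red and blue mark genes past the threshold, which are phr (1.19), mus210 (0.63) and Rrp1 (-0.57).

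Photolyases gave the largest called change. The gene phr encodes the enzyme that uses light to split cyclobutane pyrimidine dimers (2R, 7825289 to 7827319, plus strand, dm6). It stood at 222, 156 and 155 CPM in RasV12 replicates 1, 2 and 3 and at 73.8, 83.3 and 76.4 CPM in GFP-i. All 3 RasV12 libraries lay above all GFP-i libraries, with RasV12 replicate 1 well above the other 2. The log2 fold change was 1.19 ± 0.16 (SE, n = 3 per group; edgeR adjusted p = 0.00103), a 2.28-fold higher level. The call was kept under each of 16 alternatives, with log2 values of 0.99 to 1.28.

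The 3' end of phr overlaps the end of the row named CG30382;Prosalpha1, proteasome subunit genes on the other strand, by 17 bases. Another row of the table has the same name and a nearly equal level, and the values here are for the row at the end of phr. That row had 16662 counts over the 6 libraries, against 10356 for phr. It stood at 314, 274 and 245 CPM in RasV12 and at 139, 124 and 145 CPM in GFP-i, so these groups too were apart. Its log2 fold change was 1.02 ± 0.14 (SE; edgeR adjusted p = 0.000819), close in size to that of phr. Whether counting used strand is not stated, and the part of shared reads in the phr value was not tested.

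**Figure D2:**
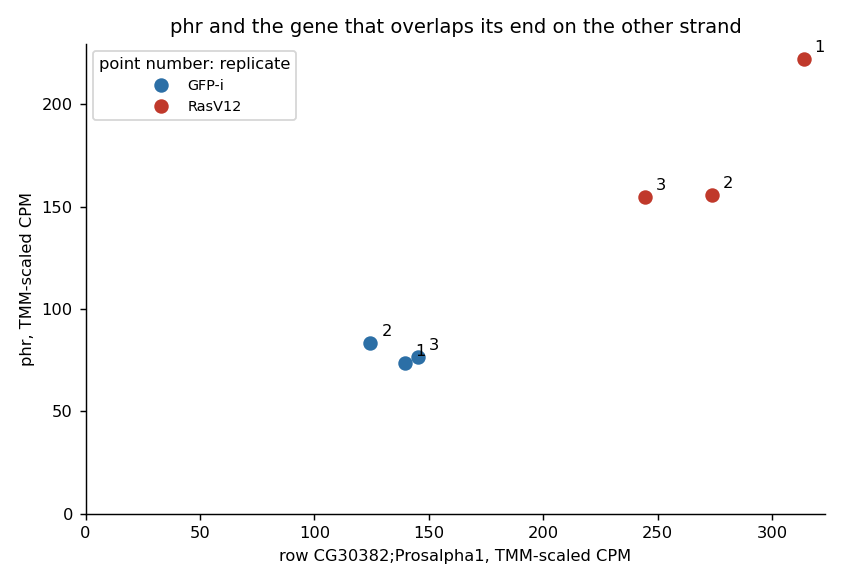
Level of phr (vertical axis, CPM) against the level of the row CG30382;Prosalpha1 (horizontal axis, CPM) in each library, numbered by replicate. The 3 RasV12 libraries lie at 155 to 222 CPM for phr and 245 to 314 CPM for the other row, above all 3 GFP-i libraries on both axes.

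The other photolyase gene, phr6-4, acts on (6-4) photoproducts and was close to the limit of detection. Its counts were 4, 10 and 15 in RasV12 and 24, 14 and 13 in GFP-i. The ranges overlapped, and the log2 fold change of -0.66 did not pass (edgeR adjusted p = 0.466). Its 95% interval ran from -1.86 to 0.53, so a fall of more than 1 log2 unit cannot be told from no change at this depth.

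Nucleotide excision repair removes bulky and ultraviolet lesions. The gene mus210, the fly XPC homologue that recognises distorted DNA (2R, 15311510 to 15318239, plus strand), stood at 73.0, 91.7 and 61.2 CPM in RasV12 and at 55.7, 41.2 and 48.6 CPM in GFP-i. The groups did not overlap, but the lowest RasV12 library was near the highest GFP-i library. The log2 fold change was 0.63 ± 0.18 (SE; edgeR adjusted p = 0.0396). It passed under 7 of 16 alternatives. Leaving out RasV12 replicate 1 or 2 ended the call (adjusted p = 0.105 and 0.0746), as did leaving out any 1 GFP-i library (adjusted p = 0.0732, 0.182 and 0.193 for replicates 1, 2 and 3). Scaling by library size alone ended it as well (adjusted p = 0.103), and so did dropping the ribosomal RNA and mitochondrial rows (adjusted p = 0.0597). The last 300 bases of mus210 lie within exons of CG8155 on the other strand, which had fewer counts and a log2 fold change of -0.13.

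Xpd, a helicase of TFIIH that opens DNA around the lesion and also serves transcription, stood at 16.6, 18.5 and 15.0 CPM in RasV12 and at 21.1, 17.3 and 19.1 CPM in GFP-i. Its groups overlapped, its log2 fold change was -0.20 and its interval ran from -0.57 to 0.17 (edgeR adjusted p = 0.474). The difference between mus210 and Xpd in response to RasV12 was not tested.

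Base excision repair and single-strand break repair handle small lesions and nicks. Rrp1 encodes an AP endonuclease, which cuts the strand at sites that have lost a base (2L, 2969773 to 2972508, minus strand). It stood at 84.4, 80.9 and 71.8 CPM in RasV12 and at 126, 107 and 120 CPM in GFP-i. Every RasV12 library was below every GFP-i library, with a gap wider than the range within RasV12. The log2 fold change was -0.57 ± 0.13 (SE; edgeR adjusted p = 0.0158), a 1.49-fold lower level. It passed under 12 of 16 alternatives, and leaving out replicate 3 of RasV12 or of GFP-i ended the call (adjusted p = 0.0557 and 0.0519). No other gene of the table overlaps Rrp1.

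XRCC1, the scaffold that gathers the enzymes sealing single-strand breaks, was next in order of p. It stood at 6.03, 8.72 and 7.97 CPM in RasV12 and at 10.4, 11.3 and 11.8 CPM in GFP-i. The groups did not overlap, yet the log2 fold change of -0.56 ± 0.20 (SE) did not pass (edgeR adjusted p = 0.102). Scaled by library size alone, which moved the median of all genes to -0.14, it passed (log2 -0.72, adjusted p = 0.0445). Of the 382 values that 25 uncalled repair genes took under the alternatives, this was the only one past the threshold.

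Parp, which marks breaks with poly(ADP-ribose), stood at 35.6, 62.0 and 44.4 CPM in RasV12 and at 53.9, 45.0 and 46.7 CPM in GFP-i. RasV12 held both the highest and the lowest library, and the log2 fold change was -0.04 (interval -0.48 to 0.41; edgeR adjusted p = 0.928). Ogg1, the glycosylase that removes 8-oxoguanine, had 6 to 14 counts in RasV12 libraries and 8 to 17 in GFP-i libraries. Its log2 fold change of -0.32 had an interval of -1.37 to 0.72. All 4 tested genes of this role had a value below 0, and 1 of them passed.

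**Figure D3:**
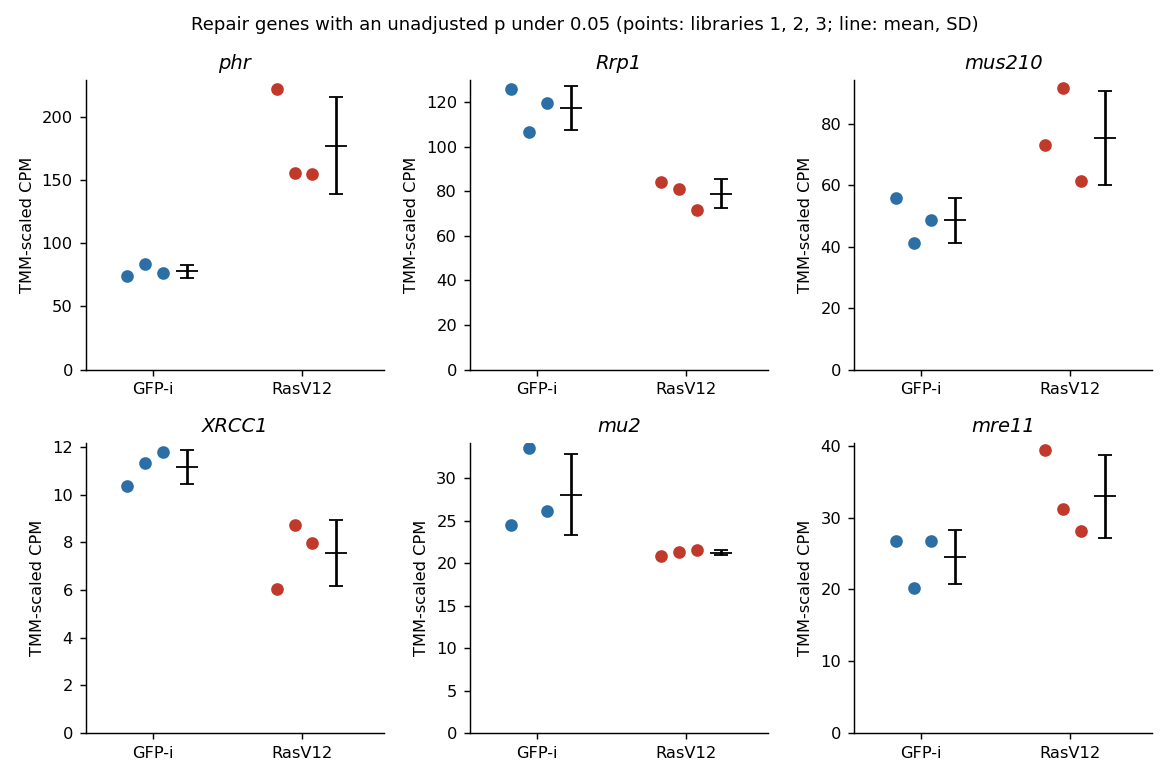
Level in each library (vertical axis, TMM-scaled CPM, from 0) of the 6 repair genes with an unadjusted p under 0.05. Points are libraries 1, 2 and 3 of GFP-i (blue) and RasV12 (red), and the line and bar are the mean and SD; the groups do not overlap in any of the 6 panels, and phr, Rrp1 and mus210 passed after adjustment.

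Mismatch repair genes did not pass. Msh6, a subunit of the complex that binds a mispaired base, stood at 4.07, 7.40 and 4.504 CPM in RasV12 and at 8.20, 4.72 and 7.40 CPM in GFP-i. Its groups overlapped, with RasV12 replicate 2 above the other RasV12 libraries, and the log2 fold change of -0.35 had an interval of -1.04 to 0.33 (edgeR adjusted p = 0.505). The exonuclease gene tos, the fly Exo1, had 12, 4 and 17 counts in RasV12 and 24, 29 and 10 in GFP-i, a log2 fold change of -0.79 with an interval of -1.91 to 0.34. It lies wholly within the span of CG31751 on the other strand, which had 421 counts against 96.

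The MRN complex binds and trims broken ends, and its 3 genes all had a positive value that did not pass. The nuclease gene mre11 stood at 39.4, 31.2 and 28.2 CPM in RasV12 and at 26.7, 20.2 and 26.7 CPM in GFP-i. The groups were just apart, and the log2 fold change was 0.43 ± 0.19 (SE; edgeR adjusted p = 0.165). The ATPase gene rad50 stood at 18.3, 22.6 and 15.4 CPM in RasV12 and at 17.9, 11.5 and 19.0 CPM in GFP-i, with overlapping groups. For rad50 and nbs, the regulatory subunit, the log2 fold changes were 0.22 and 0.19 (edgeR adjusted p = 0.588 and 0.624). All 3 intervals lay within 1 log2 unit of 0, with a widest upper bound of 0.84 for mre11. Without GFP-i replicate 2, rad50 had a log2 fold change of -0.022.

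Homologous recombination copies the sister chromatid. None of its 5 tested genes passed, and all 5 intervals lay within 1 log2 unit of 0. The lowest p belonged to okr, the motor protein Rad54. It stood at 5.37, 5.90 and 5.27 CPM in RasV12 and at 4.96, 4.30 and 4.76 CPM in GFP-i. Its groups did not overlap, yet the difference was small, at a log2 fold change of 0.24 (edgeR adjusted p = 0.535). The last 300 bases of okr lie within exons of Bem46 on the other strand, which had 349 counts against 415 and a log2 fold change of -0.01. Brca2, a mediator of recombination, had 0.07. The helicase genes mus301 and Blm had 0.24 and -0.03. Values of okr, Brca2, mus301 and Blm ran from 2.84 to 10.0 CPM in RasV12 and from 2.04 to 11.6 CPM in GFP-i. Another gene of this role, spn-B, had 8 counts over all libraries, 5 of them in GFP-i replicate 3, and was too low to test.

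End joining seals breaks without a long template. Ku80 had 19, 44 and 14 counts in RasV12 and 12, 17 and 11 in GFP-i. The level of 4.12 CPM in RasV12 replicate 2 stood apart from 1.38 and 0.970 CPM in the other RasV12 libraries and from 0.831 to 1.002 CPM in GFP-i. The fitted log2 fold change was 1.20 ± 0.55 (SE; edgeR adjusted p = 0.183), as large as that of phr but not past the threshold. Without RasV12 replicate 2 it was 0.36 (adjusted p = 0.671). Its partner Irbp, the fly Ku70, ranged from 2.83 to 3.95 CPM in RasV12 and from 3.01 to 3.46 CPM in GFP-i, with a log2 fold change of 0.10. The 2 subunits act as a heterodimer, and the difference between them was not tested.

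DNA polymerase theta, encoded by mus308, joins ends that share short matching stretches. Its gene stood at 5.30, 5.72 and 4.23 CPM in RasV12 and at 4.66, 2.89 and 3.02 CPM in GFP-i, a log2 fold change of 0.53 (edgeR adjusted p = 0.265). The groups overlapped through GFP-i replicate 1. Exons of CG12279 on the other strand cover 253 of its last 300 bases, and that gene had 3967 counts against 346.

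Damage scaffolds hold repair and checkpoint proteins at the lesion. The chromatin-bound factor gene mu2 stood at 20.9, 21.3 and 21.5 CPM in RasV12, and at 24.5, 33.5 and 26.2 CPM in GFP-i. RasV12 libraries were nearly equal and below all GFP-i libraries, and the log2 fold change was -0.40 ± 0.17 (SE; edgeR adjusted p = 0.145). For mus101, the fly TopBP1, RasV12 libraries ranged from 1.32 to 4.87 CPM and GFP-i libraries from 1.83 to 3.76 CPM, a spread that left a log2 fold change of 0.01 with an interval of -1.07 to 1.09. Its value was -0.61 without RasV12 replicate 2.

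Translesion synthesis copies past a lesion that stalls the replicative polymerases. The catalytic subunit of DNA polymerase zeta, mus205, stood at 12.6, 9.84 and 11.6 CPM in RasV12 and at 11.1, 7.49 and 10.4 CPM in GFP-i. Its groups overlapped, with a log2 fold change of 0.23 (edgeR adjusted p = 0.522). Nop17l, on the other strand, overlaps its end by 260 bases and had 2622 counts against 859. The gene mus205 lies 24244 bases from phr, as Rrp1 lies 17085 bases from okr, and in each pair of neighbours 1 gene passed the test and the other did not. No other members lay within 50000 bases of each other.

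Structure-specific nucleases cut branched DNA such as flaps and Holliday junctions. The lowest p belonged to Gen, a resolvase gene, at 3.99, 6.28 and 4.99 CPM in RasV12 and 6.544, 7.13 and 6.35 CPM in GFP-i. The groups were only just apart, and the log2 fold change was -0.40 (edgeR adjusted p = 0.317). The groups of mus81, a subunit of another junction nuclease, were also apart, at 0.831 to 1.41 CPM against 1.504 to 1.83 CPM in the control, with a log2 fold change of -0.61 (edgeR adjusted p = 0.320). Ercc1, the partner of the XPF nuclease, had 0.18 with overlapping groups. The XPF gene itself, mei-9, had 0, 1 and 2 counts in RasV12 and 1, 4 and 4 in GFP-i, too few to test.

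Crosslink repair was represented by Fancd2 and FANCI, which form the clamp that is loaded at a crosslink. FANCI stood at 6.24, 7.03 and 7.48 CPM in RasV12 and at 7.52, 8.66 and 8.99 CPM in GFP-i. The groups touched without overlap, and the log2 fold change was -0.28 (interval -0.72 to 0.17; edgeR adjusted p = 0.405). Fancd2 overlapped between groups at 5.53 to 9.15 and 6.69 to 8.55 CPM, with -0.06 (interval -0.59 to 0.47).

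**Figure D4:**
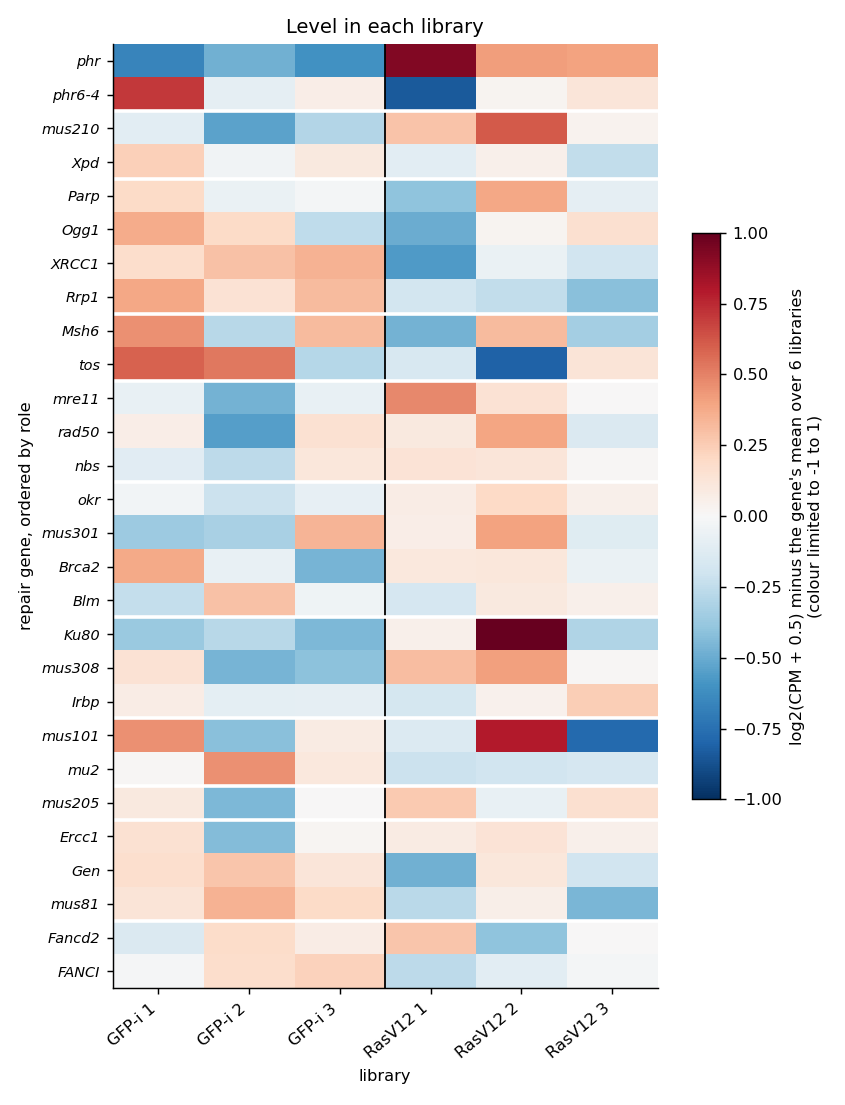
Level of 28 tested repair genes (rows, grouped by role) in each library (columns), as log2(CPM + 0.5) minus the mean of that gene over the 6 libraries, with colour limited to -1 to 1. The 3 RasV12 columns of phr are red and its 3 GFP-i columns blue, Rrp1 shows the reverse, and RasV12 replicate 2 is dark in Ku80 and mus101.

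Taken by library, groups did not overlap for 10 of 30 repair genes, beside 33.6% of all tested genes. In RasV12, 4 of the 30 were higher and 6 lower, beside 18.6% and 15.1% of all tested genes. RasV12 replicate 2 was the highest of its group for 17 of 30 repair genes, and for 35.5% of all genes. GFP-i replicate 2 was the lowest of its group for 17 of 30, and for 39.2% of all genes. RasV12 replicate 3 was the lowest of its group for 16 of 30 (31.2% of all genes), and GFP-i replicate 1 the highest for 16 of 30 (38.1% of all genes). The cause was not tested. The called genes phr, mus210 and Rrp1 held 54.9 to 62.2% of the summed CPM of the 32 genes in RasV12 and 49.8 to 50.3% in GFP-i. They were singled out by their difference in these same libraries, so their share is no separate result. The other 29 summed to 231, 270 and 224 CPM in RasV12 and to 255, 228 and 247 CPM in GFP-i, with overlapping ranges.

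Most repair genes had low levels. The mean was below 10 CPM for 21 of the 30 tested genes, and the median gene had 6.03 CPM, against 12.03 CPM over all tested genes. None of these 21 passed in edgeR, 1 of them had an unadjusted p under 0.05, and DESeq2 and limma-voom called none of them either. Of all tested genes with a mean below 10 CPM, 10.5% passed. Of the 9 repair genes with a mean of at least 10 CPM, 3 passed, beside 18.4% of all genes at that level. The share of repair genes called was not tested against these backgrounds. The 95% interval lay within 1 log2 unit of 0 for 19 of 30 genes, and for 58.2% of all tested genes. For phr, mus210, Ku80, mus308, mus101, mus81, phr6-4, XRCC1, Msh6, tos and Ogg1 it reached beyond 1 log2 unit in at least 1 direction.

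**Figure D5:**
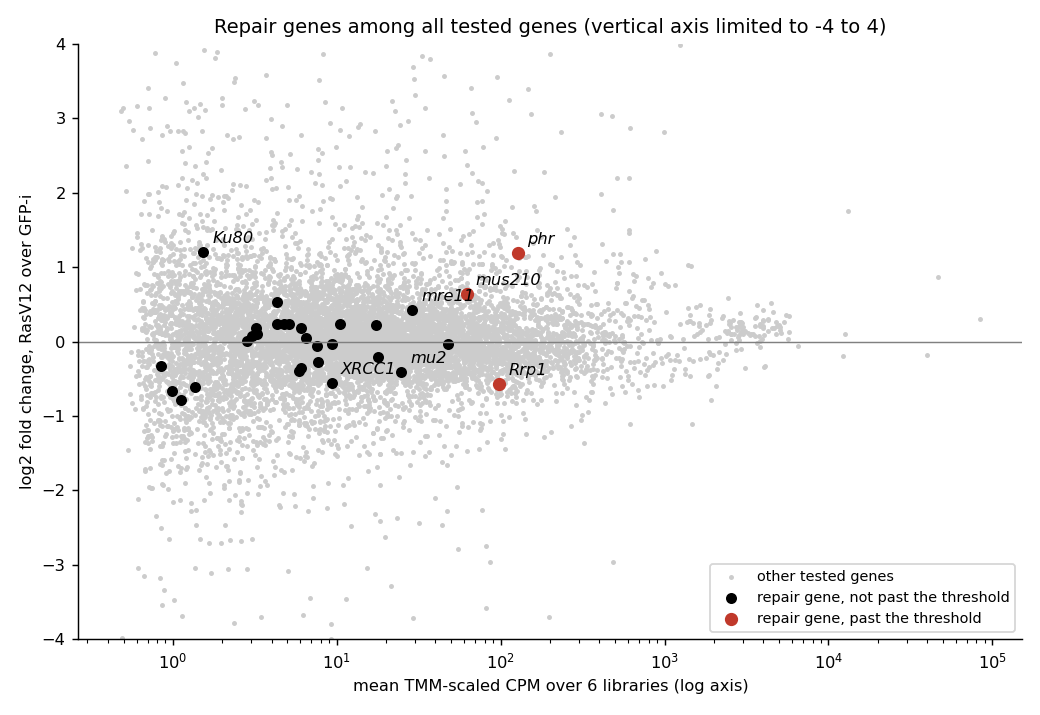
Log2 fold change (vertical axis, cut at both ends) against mean level (horizontal log axis, CPM) of all tested genes in grey and of the 30 repair genes in black or, where past the threshold, red. The 3 called repair genes lie at the highest levels of the set, and Ku80 has a log2 fold change of 1.20 at a low level.

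Some of these values may share reads with neighbours. In 15 of the 32 genes an exon of another listed gene lies within the last 300 bases, where 3' tags are read, and in 8 of them that neighbour had more counts than the repair gene. Besides phr, mus308 and mus205 these include spn-B (beside NK7.1), Ercc1 (Ciao1), Gen (Aats-ala-m) and mus301 (CG13676), and their values are uncertain to that extent. On the same strand, lncRNA:CR44957 overlaps mei-9 and had 100 counts against 12.

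Other DNA repair genes came from a list of 60 symbols, of which 35 matched the table. Of 34 tested genes 1 rose (2.94%) and 33 did not pass, with a median log2 fold change of 0.07. The gene that rose was DNApol-iota, a translesion polymerase, at 12.1, 15.0 and 12.4 CPM in RasV12 and 8.43, 6.543 and 6.04 CPM in GFP-i. Its log2 fold change was 0.91 ± 0.21 (SE; edgeR adjusted p = 0.0158), and leaving out GFP-i replicate 2 or 3 ended the call (adjusted p = 0.0698 and 0.113). The last 300 bases of DNApol-iota lie within exons of Ada2b on the other strand, which had more counts and a log2 fold change of 0.24. The exonuclease gene WRNexo missed the threshold at -0.92 (edgeR adjusted p = 0.052) but passed under 8 of 16 alternatives, such as DESeq2 (adjusted p = 0.0148) and a fit without RasV12 replicate 2 (adjusted p = 0.00236), where 2 genes of this list were called. With all 6 libraries and TMM scaling, 10 of 41 DNA replication genes fell (24.4%), with 37 values below 0 and a median of -0.40. Among all tested genes 5.68% fell, 4408 of 9134 values were below 0 and the median was 0.02. The replication share was not tested against this background. Scaling by library size alone raised the replication count to 19. Dropping replicate 1 of either genotype lowered it to 6, and dropping replicate 3 of either lowered it to 5. The replicate block also gave 5, as did leaving out RasV12 replicate 3 together with GFP-i replicate 2. Every other alternative gave 10 to 12, among them DESeq2, limma-voom and dropping replicate 2 of either genotype. The difference between the replication and repair lists was not tested.

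The authors' deposited table holds a comparison of its own for these genes. For phr the authors' deposited table gives a shrunken log2 fold change of 1.11 and leaves the p-value and adjusted p-value blank, as it does for 98 genes. For Rrp1 and mus210 the authors' deposited table gives -0.59 and 0.58, with adjusted p-values of 0.00116 and 0.0225. Neither is marked as higher or lower in the call column of the authors' deposited table, where every marked gene has a shrunken change of at least 1 log2 unit.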

How the data were processed

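RNA from flow-sorted wing disc cells was read as 3' tags, 100 nucleotides, single reads, per the labels' protocols. The authors deposited 1 table with whole-number counts per gene and their own DESeq2 comparison (baseMean signal, log2 fold changes, test score, p-value columns), per the file headers. The submitters' processing notes name dm6 as the build and list STAR 2.3.0e, Trimmomatic 0.33, DESeq2 and bedtools 2.17. No source used here gives the counting program, strand use or annotation release. Coordinates of all 32 genes were identical to the Ensembl release 115 annotation, which served for exon overlaps.

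The test was that of edgeR 4.0.16 in R 4.3.3 on the counts (TMM, filterByExpr, robust quasi-likelihood F test, two-sided, Benjamini-Hochberg adjustment over all tested genes, threshold 0.05). Of 14233 genes 9134 were tested, 30 of them among the 32 repair genes. Standard errors came from the F statistic. Alternatives were other scalings, filters, DESeq2 1.42.0, limma 3.58.1, a replicate block and left-out libraries. The text gives per-library values for every repair gene past the threshold and for the gene with the lowest p in each role. It also gives others where they share a complex, and genes of the other repair list past the threshold. XRCC1, Parp, mus308, the row at the end of phr and cell type markers are given outside this rule. WRNexo and CG7922 were chosen after their values were seen. Members and lists were chosen with earlier results of these data known. No sequence is shown. Values of 2 tested genes are not reported here, though counts over the set include them.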

Additional observations from a re-analysis of the deposited data

How the results depend on the processing

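The count of all genes past the threshold was 1355, and 678 when RasV12 replicate 3 and GFP-i replicate 2 were both left out. Leaving out 1 library gave 741 to 1521 genes. Repair genes past the threshold numbered 3, and 1 to 2 with 1 library left out (1 to 2 higher, 0 to 1 lower). With RasV12 replicate 3 and GFP-i replicate 2 both left out, 1 repair gene was called (1 higher, 0 lower), and without ribosomal RNA and mitochondrial rows 1 was higher. With scaling by library size only 1 was higher and 2 were lower, and over all genes 615 were higher and 911 lower, against 836 and 519 (the median of all genes moved to -0.14). The replicate block left 701 genes and 1 repair gene, phr (1 higher, 0 lower). Same-numbered libraries did not deviate together (r = -0.03, -0.42 and -0.11 over genes), and 0 of 3 RasV12 libraries matched their own number best. Between libraries of different number, r ran from -0.51 (RasV12 replicate 3 with GFP-i replicate 1) to 0.56 (RasV12 replicate 3 with GFP-i replicate 2). It was 0.43 for RasV12 replicate 2 with GFP-i replicate 1. Deviations from a mean of 3 libraries sum to 0 in each group, so these values cannot show which libraries were handled together. Whether the numbers pair the samples is not known.

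Of the values of 28 repair genes under the alternatives, 390 kept direction and side, 13 lost a call, 1 gained one and 26 changed sign. The sign changes were all of uncalled genes. Log2 values for mus101 were -0.012 with DESeq2 size factors, -0.14 with library size only, -0.019 with upper quartile scaling, -0.036 with no filter, -0.0071 with DESeq2, -0.15 with limma-voom, -0.12 with the block and -0.030 without ribosomal RNA rows. Library size only gave -0.092 for Brca2 and -0.058 for Irbp. With RasV12 replicate 3 and GFP-i replicate 2 both left out Blm stood at 0.075, Irbp at -0.11 and Ercc1 at -0.018. With 1 library left out the ranges were -0.022 to 0.34 (rad50), -0.20 to 0.29 (Brca2), -0.21 to 0.10 (Blm), -0.028 to 0.21 (Irbp), -0.61 to 0.36 (mus101), -0.044 to 0.27 (Ercc1), -0.28 to 0.13 (Parp), -0.24 to 0.11 (Fancd2) and -0.16 to 0.13 (CG7922). The cause was not tested.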
